A study of Homo sapiens with 9 samples.

Results

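GFP background common to 2 untagged renal carcinoma lines was made up of 423 peaks. They were the peaks of a GFP chromatin immunoprecipitation (ChIP-seq) in parental 786-O cells that overlapped, by at least 1 bp, a GFP peak of parental A498 cells, and that lay outside the places where both lists were crowded. The parental 786-O list held 3361 peaks and the 5 lists of the study held 52875. Of the 3361, 727 overlapped a parental A498 peak; 304 of these lay in 14 bins of 1 Mb with 10 or more peaks in each parental list and were left out, and the other 423 are called the common background peaks here. They lay at 439 distinct parental A498 peaks. The 2600 parental 786-O peaks outside those bins without a parental A498 peak, called the 786-O-only background, served for comparison. The common background peaks were thus selected on the overlap of the parental lists, which is not itself a finding.

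786-O and A498 are established lines of clear cell renal cell carcinoma, the kidney cancer in which loss of VHL is common. Tagged cells carried an eGFP knock-in at ZNF395, made by electroporation of a guide RNA plasmid and a donor plasmid for a LAP tag, a fusion tag that holds eGFP. Parental cells carried no tag, and both were precipitated with the GFP antibody ab290; a further library of parental 786-O used a MYC antibody. The study has 9 samples, of which 5 have a peak list and 4 are inputs, with 1 library per group and 30 to 50 M reads per library per the labels' protocols. The labels do not say whether the tagged cells were a clone or a pool. Titles were followed where labels conflict: the cell line entry of the A498 samples reads 786-O, and the target entry of the MYC sample reads P300 although its antibody entry is MYC. Since no group has a replicate, no p-value is given, and the 95% intervals given cover only counting error, with peaks taken as independent.

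In cells without GFP, an antibody against GFP has no intended target, and the peaks such a library gives are usually called background. It is general knowledge that background of this kind is often found at very highly transcribed genes, in open chromatin and at repeats whose copies are collapsed in the reference genome. Small nuclear RNAs (U1, U2, U4, U5, U11, U12) build the spliceosome, and the U3 and U8 small nucleolar RNAs act in ribosomal RNA processing; their short genes are among the most heavily transcribed. Immediate early genes such as EGR1 and JUN are switched on within minutes of a stimulus. MYC binds open promoters, with the E-box as its best known sequence.

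No annotation of hg19, the build of the files, was used here, so peaks are named by their hg19 position, counted from 1. Gene names at 49 of the 423 peaks come from general knowledge of hg19 and were chosen after the positions were seen, as background and not as a count of all peaks at genes. All 39 names were found on the same chromosome in the RefSeq table of GRCh38.p14. On the 9 chromosomes with 2 or more named genes their order was the same in that table, and the spacing of the 8 neighbouring pairs within 400 kb differed by at most 0.712 kb. Small RNA genes have near-identical copies elsewhere, so which copy gave the reads is uncertain, and neighbouring genes were not told apart.

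As examples, the 250 bases before the RefSeq start (GRCh38.p14) are printed for 4 genes at common background peaks. These 4 do not stand for all peaks at genes. LAMP1, a lysosomal membrane protein (chr13:113296989-113297238, plus strand), and EEF1A1, a translation elongation factor (chr6:73521033-73521282, minus strand), also had a MYC peak. EGR1, an immediate early transcription factor (chr5:138465229-138465478, plus strand), and CCN2, a secreted matricellular protein (chr6:131951373-131951622, minus strand), had none. Capitals mark every match to 7 motifs: the E-box CACGTG, the cyclic AMP response element with its letters TGACGTCA, the GC box given as GGGCGG, the ETS site read as CCGGAAGT, the CCAAT box, the TATAAA box, and the CArG box of serum response factor.
LAMP1: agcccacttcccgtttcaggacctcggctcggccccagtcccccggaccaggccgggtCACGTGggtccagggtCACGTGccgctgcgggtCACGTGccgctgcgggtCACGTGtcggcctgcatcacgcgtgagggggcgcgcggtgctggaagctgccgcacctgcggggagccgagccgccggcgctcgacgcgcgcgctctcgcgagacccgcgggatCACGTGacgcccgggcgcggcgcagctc
EEF1A1: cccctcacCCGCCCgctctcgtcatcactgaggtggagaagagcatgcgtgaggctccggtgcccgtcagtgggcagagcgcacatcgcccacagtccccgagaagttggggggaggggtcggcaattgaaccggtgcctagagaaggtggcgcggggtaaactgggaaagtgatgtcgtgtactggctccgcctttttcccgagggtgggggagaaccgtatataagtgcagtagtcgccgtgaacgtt
EGR1: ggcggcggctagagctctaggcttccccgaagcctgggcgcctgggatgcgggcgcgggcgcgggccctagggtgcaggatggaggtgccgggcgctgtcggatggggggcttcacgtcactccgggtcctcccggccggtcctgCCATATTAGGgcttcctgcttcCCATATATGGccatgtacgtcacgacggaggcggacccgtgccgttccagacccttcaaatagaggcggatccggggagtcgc
CCN2: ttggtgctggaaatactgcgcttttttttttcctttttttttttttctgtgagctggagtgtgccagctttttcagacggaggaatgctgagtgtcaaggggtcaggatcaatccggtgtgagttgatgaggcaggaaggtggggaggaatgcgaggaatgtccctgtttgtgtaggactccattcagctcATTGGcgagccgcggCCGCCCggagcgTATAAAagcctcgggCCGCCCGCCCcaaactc
The LAMP1 promoter held 5 E-boxes, a motif found in 6.34% of the 35116 RefSeq promoter windows of this length. The EGR1 promoter held 2 CArG boxes, found in 1.16% of windows, and none of the other motifs; the CArG box was added after this sequence was seen. EEF1A1, which like LAMP1 had a MYC peak, held 1 GC box (42.6% of windows) and no E-box. CCN2 held 3 GC boxes, the last 2 overlapping each other, with 1 CCAAT box (32% of windows) and 1 TATAAA box (10.7%). The cyclic AMP response element (1.65%) and the ETS site (3.42%) were in none of the 4. Both strands were searched. These are descriptions of letters, and whether the hg19 peaks cover these GRCh38 windows was not tested.

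Among the common background peaks of highest parental 786-O score, many lay at genes of small nuclear and nucleolar RNAs. Score here is the authors' −log10 p or q value of a peak, compared only within its own list and mostly as a rank, with rank 1 the highest. Of the 20 highest peaks of parental 786-O, 19 were common background peaks, and 10 of these lay at or beside a small RNA gene named after the positions were seen. SNORD3A, a gene for U3 (chr17:19091278-19091579), had the highest score of the whole parental 786-O list, 171.7, and rank 4 of 1563 in parental A498. Rank 1 in parental A498, with a score of 154.1, went to the U1 gene RNU1-1 (chr1:16839971-16840906), which had rank 6 in parental 786-O. RNU11, the U11 gene of the minor spliceosome (chr1:28975010-28975899), had ranks 4 and 10, and RNU2-2, a U2 gene (chr11:62608381-62609360), had ranks 12 and 5. The parental ranks are the values that chose these peaks and are given as a description.

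Each of the 19 peaks at named small RNA genes overlapped a tagged 786-O peak, and 17 of them a tagged A498 peak. Of all 423 common background peaks 87.2% had the first and 62.9% the second, and of all parental 786-O peaks 76.2% and 36.0%. SNORD3A had rank 32 of 20034 in tagged 786-O and rank 3 of 7718 in tagged A498, and no MYC peak. RNU1-1 had ranks 389 and 56 in the tagged lists, in the order 786-O and A498, and RNU5B-1, a U5 gene, had ranks 424 and 387. The median rank of the 19 lay 8.76% into the tagged 786-O list, and that of the 17 lay 9.42% into the tagged A498 list. RNU4-2, a U4 gene (chr12:120729040-120729852), had parental ranks of 26 and 28 but tagged ranks of 4952 and 5715. RNU4-1, its neighbour, and SNORD118, the U8 gene, had a tagged 786-O peak, at ranks 10740 and 6863, and no tagged A498 peak. RPPH1, the RNA of ribonuclease P, ranked 102 in parental 786-O and 1467 in parental A498, the widest gap between the lines among the 19.

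A MYC peak was found at 6 of the 19 peaks at small RNA genes (31.6%, exact interval 12.6 to 56.6). Of all common background peaks 42.6% had one, a share inside that interval, and of all parental 786-O peaks 60.5%. The 6 ranked between 9253 and 19736 of the 20199 MYC peaks. The 6 were RNU5E-1, RNU1-1, RNU1-2, RNU2-2, RPPH1 and RNU5F-1. The 5 common background peaks of highest parental 786-O score without a MYC peak were all at small RNA genes: SNORD3A, SNORD3D, RNU11, RNU4ATAC and RNU12. Parental 786-O and MYC peaks were called against the same control library, so these lists are not wholly separate data.

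**Figure D1:**
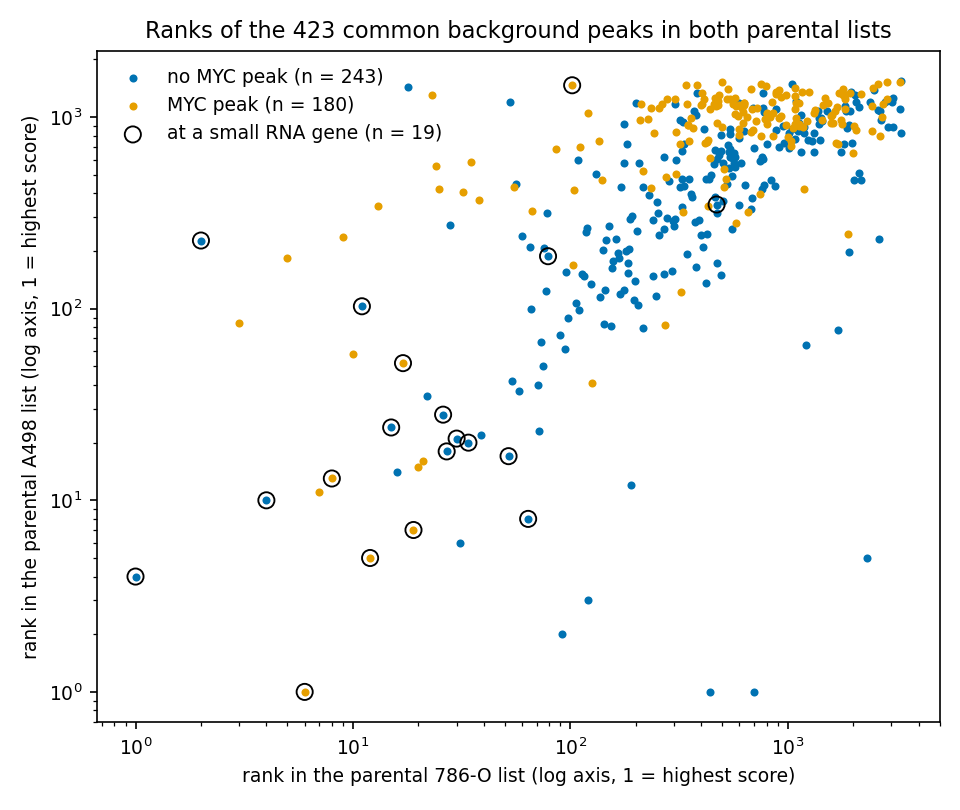
Each point is 1 of the 423 common background peaks, by its rank in the parental 786-O list (x) and in the parental A498 list (y), on log axes with 1 the highest score; orange points have a MYC peak, blue points have none, and circles mark the 19 peaks at named small RNA genes. Most circles lie at the lower left, with high ranks in both lists, and orange points gather at the upper right, where parental A498 ranks are low.

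At protein-coding genes, 30 common background peaks were named at 20 genes. Housekeeping genes accounted for 8 peaks at 5 genes. LAMP1 (chr13:113951161-113951710) was the highest of them, with parental ranks of 3 and 84, tagged ranks of 326 and 330 and MYC rank 2342. EEF1A1 had 2 named peaks: the one at chr6:74230417-74230927 had parental ranks of 581 and 1139, tagged ranks of 2324 and 446 and MYC rank 1442, whereas the one at chr6:74224318-74224439 ranked lower in tagged 786-O, at 11809, and had no MYC peak. GAPDH, a glycolytic enzyme (chr12:6643553-6643894), had parental ranks of 1056 and 876 and tagged ranks of 2833 and 4039. The translation factor EIF4A2 and the beta-actin gene ACTB each had 2 peaks as well. In all, 7 of the 8 housekeeping peaks had a tagged 786-O peak, 6 a tagged A498 peak and 5 a MYC peak, beside shares over all 423 of 87.2%, 62.9% and 42.6%, and over all parental 786-O peaks of 76.2%, 36.0% and 60.5%.

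Immediate early and short-lived transcripts were represented by 14 peaks at 10 genes. CCN1, a secreted matricellular protein, had 1 peak 4557 bp wide (chr1:86046175-86050731) that overlapped 5 parental A498 peaks, with parental ranks of 13 and 342, tagged ranks of 2070 and 261 and MYC rank 2753. EGR1 had 2 peaks, of which the wider (chr5:137803868-137806745, 2878 bp) had parental ranks of 53 and 1197 and tagged ranks of 9548 and 258, without a MYC peak. Its other peak (chr5:137801108-137802141) ranked 491 and 806 in the parental lists and 2326 and 629 in the tagged lists, again without a MYC peak. CCN2 (chr6:132272244-132272647) ranked 382 and 1340 in the parental lists and 1738 and 357 in the tagged lists. JUN, a subunit of the AP-1 factor, IER3, a stress-induced survival gene, and IER2 had 2 peaks each, and JUNB, DUSP1, MCL1 and HES1 had 1 each. All 14 had a tagged 786-O peak (87.2% of all 423, 76.2% of all parental 786-O peaks). A tagged A498 peak was found at 12 of them (62.9% and 36.0%) and a MYC peak at 8 (42.6% and 60.5%).

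Genes induced by hypoxia, which are constitutively active in many cells without VHL, held 8 peaks at 5 genes. ADM, the vasodilator adrenomedullin, had 2 peaks. The higher (chr11:10328765-10329798) ranked 209 and 961 in the parental lists, 588 and 1044 in the tagged lists and 3210 for MYC. LDHA, lactate dehydrogenase A (chr11:18416052-18416221), was at low parental ranks of 2432 and 1142, yet at rank 445 of the MYC list. BHLHE40, a transcriptional repressor, had 3 peaks within 6.257 kb, with tagged 786-O ranks of 8995, 15099 and 19723. DDIT4 and NDRG1 had 1 peak each. A tagged 786-O peak was found at all 8 (87.2% of all 423 and 76.2% of all parental 786-O peaks), a tagged A498 peak at 5 (62.9% and 36.0%) and a MYC peak at 7 (42.6% and 60.5%). With 8 to 19 peaks in each of these groups of genes, nothing is read from their counts. No test compares these groups, since the genes were named after the positions were seen.

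Counting any overlap, most common background peaks were called again in each tagged list, and more often than the 786-O-only peaks were. A tagged 786-O peak was found at 369 of the 423 (87.2%, 83.7 to 90.3), against 1921 of 2600 (73.9%) in the 786-O-only background; of all parental 786-O peaks 76.2% had one. The difference was 13.35 percentage points (Newcombe interval 9.462 to 16.68). A tagged A498 peak was found at 266 (62.9%, 58.1 to 67.5) against 764 (29.4%), a difference of 33.5 points (28.5 to 38.3), with 36.0% over all parental 786-O peaks. Both tagged lists had a peak at 248 (58.6%, 53.8 to 63.4) against 749 (28.8%), with 34.6% over all parental 786-O peaks. Parental and tagged A498 are the same line, so the A498 comparison stands close to the rule that chose the peaks. The shares depended on how overlap was counted. With a 50% reciprocal overlap they were 54.6% in tagged 786-O, 47.3% in tagged A498 and 29.84% in both, so that fewer than 50% were found in tagged A498. The tagged 786-O difference was then 40.79 points, and the tagged A498 difference 33.93 points.

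A MYC peak, by contrast, was less frequent at the common background. It was found at 180 of the 423 (42.6%, 37.8 to 47.4) and at 1834 of the 2600 786-O-only peaks (70.5%, 68.7 to 72.3), with 60.5% over all parental 786-O peaks. The difference was −27.99 points (−32.92 to −22.9). It depended on how overlap was counted: with a 50% reciprocal overlap it was −0.7349 points (−3.858 to 3.256), and 10.16% of the 315 common background peaks then found had a MYC peak. When bins with 5 or more common background peaks were left out, it was −19.16 points (−24.71 to −13.63).

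Common background peaks had higher parental 786-O scores than the rest, with a median of 17.5 against 5.71, and 295 of them lay in the highest of 5 equal parts by score. Within that part, tagged 786-O peaks were found at 90.5% of the 295 and at 89.4% of 310 786-O-only peaks, a difference of 1.154 points (−3.733 to 6.002). Tagged A498 peaks were found at 66.8% against 52.9%, a difference of 13.88 points (6.065 to 21.44). MYC peaks were found at 39.3% against 79.0%, a difference of −39.71 points (−46.53 to −32.23). With the score parts weighted as in the common background, the tagged 786-O difference was 2.088 points, the tagged A498 difference 16.96 points and the MYC difference −34.36 points. The highest part weighs most in these values, and the other parts, with 13 to 61 common background peaks each, did not all follow it. In the middle part the tagged 786-O difference was 19.18 points (5.531 to 25.72), and in the lowest part the tagged A498 difference was 34.76 points (9.828 to 57.9). For MYC the parts between the highest and the lowest gave −24.5, −12.2 and −26.46 points, from higher to lower score, each nearer to 0 than the difference over all peaks, and the lowest part gave −32.74.

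**Figure D2:**
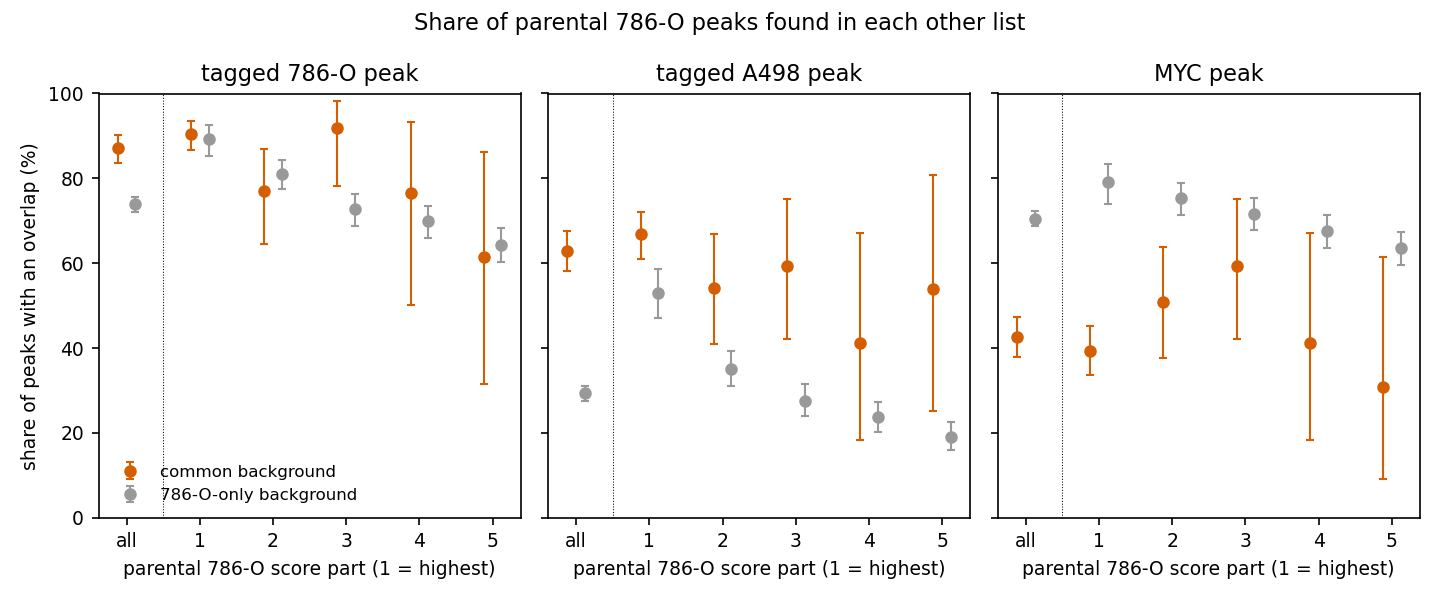
Share of parental 786-O peaks, in percent, that overlap a tagged 786-O peak (left), a tagged A498 peak (middle) or a MYC peak (right), for the 423 common background peaks (orange) and the 2600 786-O-only peaks (grey). Points are shares and bars exact 95% intervals, shown for all peaks and for 5 equal parts by parental 786-O score; in the highest part the MYC shares are 39.3% and 79.0%.

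The tagged and MYC lists combined differently at the common background. Both tagged lists without MYC were found at 114 of the 423 peaks (26.95%) and at 41 of the 2600 786-O-only peaks (1.577%). The 786-O-only peaks were chosen for having no parental A498 peak, so combinations with tagged A498, the same line, stand close to the rule. With or without MYC, both tagged lists had a peak at 34.6% of all parental 786-O peaks. The shares of the separate combinations over all parental 786-O peaks were not counted, so each is set beside the 786-O-only peaks alone. All 3 lists had a peak at 134 common background peaks (31.7%) and at 27.2% of the 786-O-only peaks. Tagged 786-O with MYC and without tagged A498 was the leading combination of the 786-O-only background, at 37.4%, and was found at 41 common background peaks (9.693%). Neither tagged list had a peak at 36 common background peaks (8.511%) and at 25.5% of the 786-O-only peaks. A tagged A498 peak without a tagged 786-O peak was found at 18 common background peaks (4.255%) and at 15 of the 786-O-only peaks (0.5769%). Over all parental 786-O peaks, 36.0% had a tagged A498 peak and 34.6% a peak in both tagged lists.

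**Figure D3:**
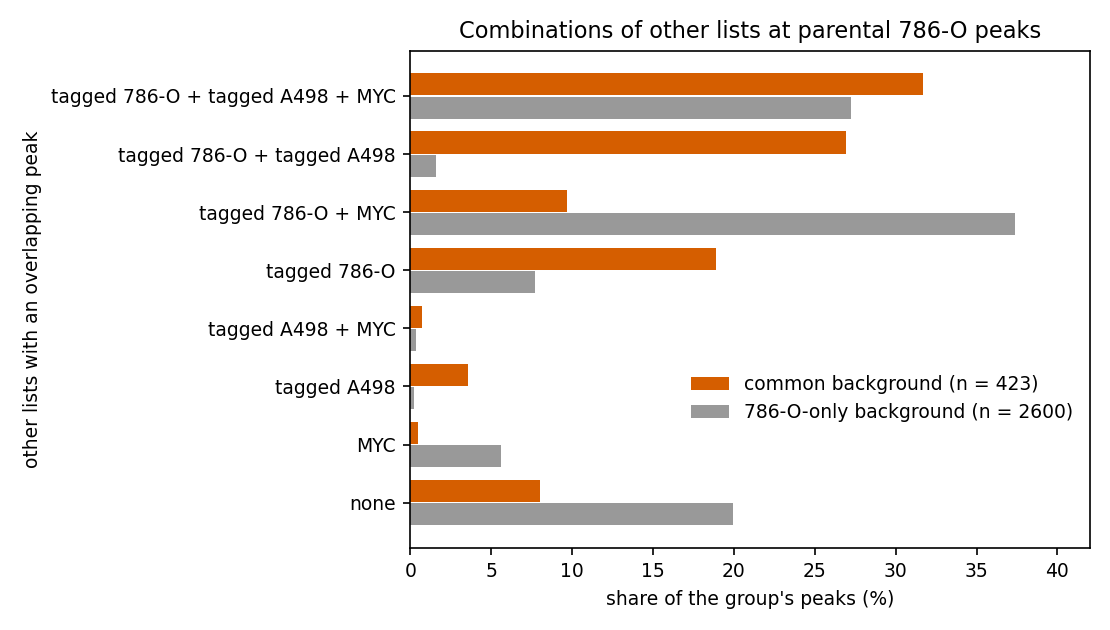
Bars give the percent of the 423 common background peaks (orange) and of the 2600 786-O-only peaks (grey) that overlap each combination of the tagged 786-O, tagged A498 and MYC lists. The combination of both tagged lists without MYC holds 26.95% of the orange and 1.577% of the grey group. The grey group was chosen for having no parental A498 peak.

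The 36 peaks absent from both tagged lists were mostly narrow, with a median width of 130 bp against 262 bp for all 423. The highest by parental 786-O score was at chr17:42422301-42422591, with parental ranks of 38 and 369 and a MYC peak at rank 16023. Next came chr8:46844789-46844916, chr11:48817912-48818033, chr11:51572075-51572204 and chr6:61913404-61913531, with parental 786-O ranks from 145 to 196 and no MYC peak. Those on chromosomes 8 and 11 near 46 and 51 Mb stood inside runs of other common background peaks. A high parental rank was therefore not always followed by a peak in tagged cells.

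Some peaks behaved the other way and were weak in parental 786-O but high in tagged 786-O, though not always in tagged A498. The peak at chr17:61994105-61994596 had rank 2811 in parental 786-O, 1205 in parental A498 and 15 of 20034 in tagged 786-O, without a peak in tagged A498 or MYC. That at chr2:191885046-191885436 had parental ranks of 1689 and 1125, tagged ranks of 166 and 1805 and MYC rank 966. That at chr19:13953562-13953770 had parental ranks of 1127 and 1190 and tagged ranks of 236 and 343. These were picked as the highest tagged 786-O ranks among peaks with a parental 786-O rank beyond 1000, after the values were seen. Among all 423, ranks in parental and tagged 786-O were only weakly related (Spearman's rho 0.26 over 369 peaks). Those in parental and tagged A498 gave 0.42 over 266 peaks, and those in both parental lists 0.62 over 423. The last value comes from the lists whose overlap chose the peaks. It is given as a description and not for comparison with the other values. These relations are across peaks, not replicates, and all reads were mapped to the same reference in every library.

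Most common background peaks stood alone, and the rest formed pairs and tight runs. With gaps of up to 10 kb allowed, the 423 peaks formed 324 loci, of which 272 were single peaks, 35 were pairs that held 70 peaks, and 17 were runs of 3 or more that held 81 peaks. The longest run, 9 peaks in 7.033 kb, lay at chr19:27731940-27738972. It was followed by 8 peaks at chr16:33951005-33975541 and by 7 each at chr11:51569968-51591226 and chr8:46841633-46854557. By general knowledge of hg19, these 4 runs lie near centromeres, where satellite repeats are found, as do those on chromosome 1 at 121 Mb, chromosome 7 at 61 Mb and chromosome 10 at 39 Mb. The rule left out bins with 10 or more peaks in each parental list, so that the bins on chromosomes 17 (22 to 23 Mb) and 18 (18 to 19 Mb), with 10 parental 786-O peaks each and 15 and 11 of parental A498, were out. Those on chromosomes 16, 19 and 8, with 9 parental 786-O peaks each, were in.

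Bins crowded with common background peaks almost lacked MYC. The 12 bins with 5 or more held 79 peaks, of which 3 had a MYC peak (3.80%, 0.790 to 10.7). Over all parental 786-O peaks the share was 60.5%. The trait was not particular to these bins: of the 338 parental 786-O peaks of the left-out bins, 18 had a MYC peak. Of the 195 peaks alone in their bin 116 had one (59.5%, 52.2 to 66.4), a difference of 55.69 points (45.94 to 62.79). The 79 crowded peaks come from only 12 bins, and neighbours in a run are not independent. The intervals of this paragraph take them as independent and are likely too narrow. Tagged 786-O peaks were found at 78.5% of the crowded and 90.3% of the lone peaks, and tagged A498 peaks at 55.7% and 63.1%, a difference of 7.381 points with an interval from −5.166 to 20.11. Over all parental 786-O peaks the tagged 786-O share was 76.2% and the tagged A498 share 36.0%. The 3 crowded peaks with MYC lay at the bins on chromosome 7 at 5 Mb, chromosome 17 at 57 Mb and chromosome 1 at 149 Mb, none of which is beside a centromere gap by general knowledge.

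The rank in parental A498 went with MYC as well. Of the 211 common background peaks of higher A498 rank 45 (21.3%, 16 to 27.5) had a MYC peak, and of the 212 of lower rank 135 (63.7%, 56.8 to 70.2). Tagged 786-O shares of these groups were 85.8% and 88.7%. Over all parental 786-O peaks the MYC share was 60.5% and the tagged 786-O share 76.2%. The rule used the parental A498 list. Peaks in crowded bins had a median A498 rank of 436, against 719 for all 423, so this split partly repeats the one by crowding. Peaks with a MYC peak were found in tagged A498 more often than those without, at 76.1% against 53.1%, a difference of 23.02 points (13.89 to 31.46). The same held in tagged 786-O, at 97.2% against 79.8%, a difference of 17.39 points (11.6 to 23.1). Yet where a tagged A498 peak existed, its median rank was 1153 with MYC and 794 without. The highest MYC ranks at common background peaks were 46 at chr2:74425648-74425926, 58 at chr7:44836190-44836685 and 62 at chr17:7476146-7476455, all with peaks in both tagged lists. The next, 64 at chr5:176739389-176739543, had a tagged 786-O peak and no tagged A498 peak.

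**Figure D4:**
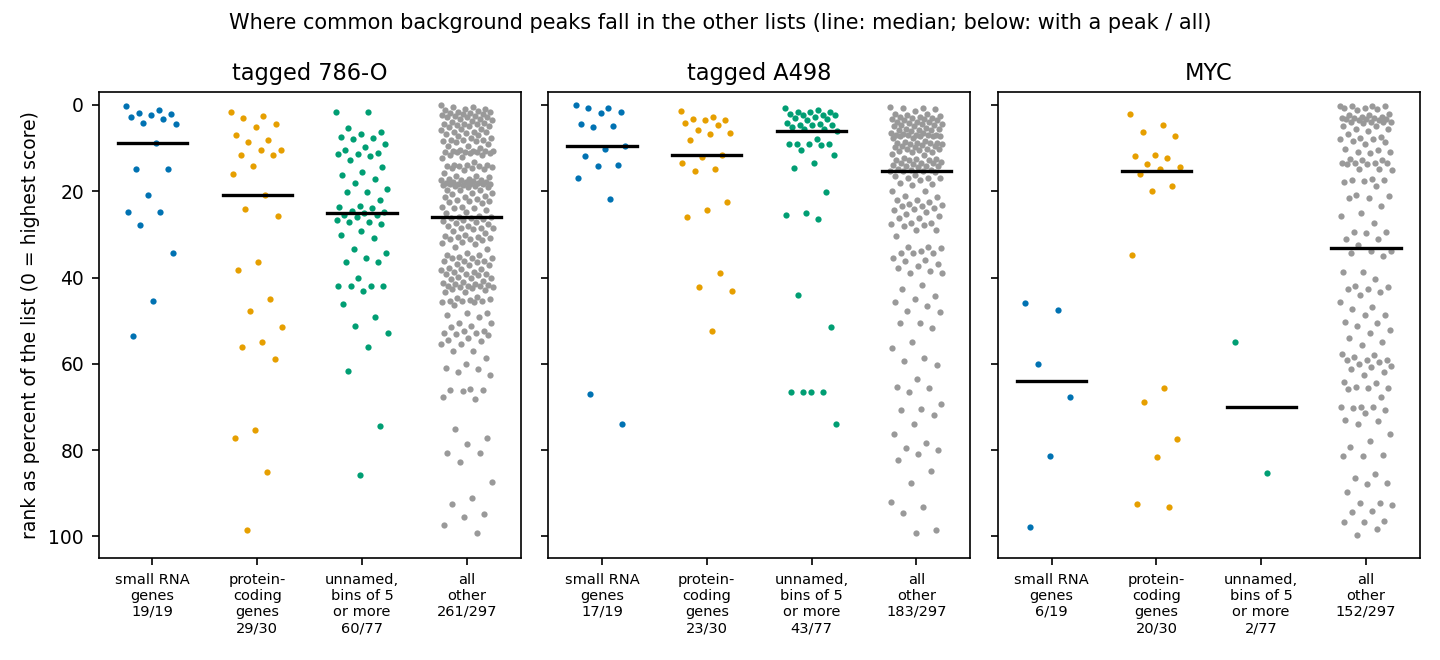
Rank of the overlapping peak as a percent of its list (0 the highest score) in the tagged 786-O, tagged A498 and MYC lists, for common background peaks at small RNA genes, at named protein-coding genes, in bins of 5 or more without a name, and for all others. Lines are medians, and the counts below give peaks with an overlap of all in the group. In the MYC panel only 2 of the 77 unnamed peaks in crowded bins have a point.

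The ends of tagged and MYC peaks gave a further property that the rule did not use. A tagged peak was counted as sharing its ends when its start and its end both lay within 50 bp of those of the parental 786-O peak, a measure added after the maps of the runs were seen. Of the 369 common background peaks with a tagged 786-O peak 103 shared both ends (27.9%, 23.4 to 32.8), against 71 of 1921 in the 786-O-only background (3.70%, 2.90 to 4.64); of all parental 786-O peaks with a tagged 786-O peak it was 14.1%. The difference was 24.22 points (19.79 to 29.06), and 14.25 with a limit of 25 bp. In tagged A498 it was 75 of 266 (28.2%) against 7.85%, with 19.0% over all, a difference of 20.34 points (14.85 to 26.28), and 9.771 with a limit of 25 bp. With MYC peaks, 5 of 180 shared both ends (2.78%) against 1.75%, with 1.87% over all, a difference of 1.033 points (−0.7035 to 4.628). The trait was not particular to the common background: among the 338 parental 786-O peaks of the left-out bins, 186 of 271 with a tagged 786-O peak shared both ends (68.6%, 62.7 to 74.1), and 95 of 179 with a tagged A498 peak (53.1%, 45.5 to 60.6), higher shares than at the common background. Tagged 786-O peaks were also narrower at the common background, with a median width of 539 bp against 782 bp. MYC peaks were narrower there as well, at 636.5 bp against 785.5 bp. Tagged A498 peaks differed less, at 348.5 bp against 358 bp.

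Within the common background, shared ends were most frequent in the crowded bins. There, 39 of 62 tagged 786-O peaks shared both ends (62.9%, 49.7 to 74.8), against 38 of 176 at lone peaks (21.6%, 15.8 to 28.4). The interval of the crowded bins again takes neighbours in a run as independent and is likely too narrow. On chromosome 19 at 27 Mb, all 9 peaks shared both ends with parental A498, and 7 of 8 did so with tagged 786-O and 5 of 6 with tagged A498; no MYC peak was called in the run. Ends shared with parental A498 are partly fixed by the overlap rule and are given as a description. The ACTB run on chromosome 7 and the run at VMP1 and MIR21 on chromosome 17 differed in form. There, none of the 6 peaks of either run shared both ends with parental A498, 2 and 4 of them had a tagged 786-O peak, in no case with shared ends, and single parental A498 peaks spanned several 786-O peaks.

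The ACTB run, at the beta-actin gene, held 6 peaks in 7.559 kb (chr7:5562801-5570359). Parental 786-O had 7 peaks in it or within 2500 bp that covered 3966 bp, with a best rank of 693, and parental A498 had 5 that covered 2922 bp. Tagged A498 covered 5517 bp, and MYC had 1 peak of 2323 bp at its end. The run at chr17:57915068-57921212, by general knowledge at the end of VMP1 and at the gene of the microRNA miR-21, held 6 peaks in 6.145 kb. There, again with 2500 bp on each side, parental A498 covered 5791 bp with 3 peaks and parental 786-O 4265 bp with 7. MYC had 1 peak of 271 bp, at rank 11083.

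**Figure D5:**
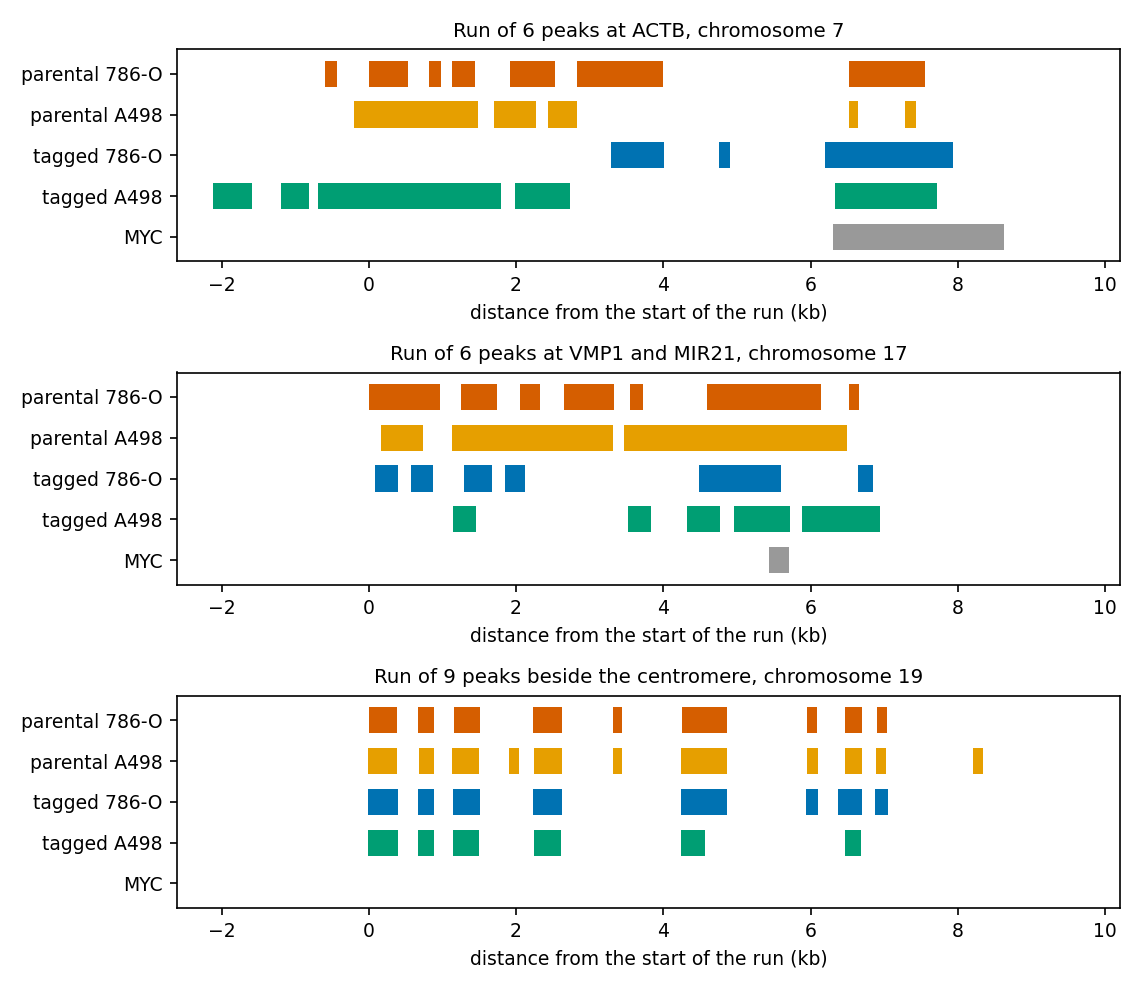
Bars show the peaks of the 5 lists along 3 runs, by distance in kb from the start of the run, for ACTB, for VMP1 and MIR21, and for the run of 9 peaks on chromosome 19. On chromosome 19 the bars of the parental and tagged lists line up and there is no MYC bar; in the other runs the ends differ between lists and each has 1 MYC bar.

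A few peaks were very wide. Over 1000 bp were 27 of the 423 (6.38%) and 11 of the 2600. The widest were 2 on the mitochondrial genome, of 5548 bp (chrM:21-5568) and 10813 bp (chrM:5750-16562), with parental ranks of 548 and 647 and of 569 and 578. In tagged 786-O they ranked 9129 and 8707, and in tagged A498 71 and 184, with no MYC peak. Mitochondrial DNA has many copies per cell, so these values are not comparable with those of nuclear sites. Rank 548 was a tie: 4 common background peaks, on chromosomes 1, 6, 7 and M, had the same parental 786-O score. That rank therefore does not order them. A wider peak has more room to overlap. With 5 equal parts by width weighted as in the common background, the difference from the 786-O-only background was 9.212 points in tagged 786-O, 26.83 points in tagged A498 and −32.08 points for MYC.

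By chromosome, common background peaks were most frequent on chromosome 1, with 68 (16.1%, 12.7 to 19.9) against 10.6% (9.46 to 11.9) of the 786-O-only background, and on chromosome 17, with 42 (9.93%, 7.25 to 13.2) against 4.89% (4.09 to 5.79). Chromosome 3 held 14 (3.31%, 1.82 to 5.49) against 6.62% (5.69 to 7.64). Near the edge of the overlap rule, 4 of the 423 overlapped their A498 peak by under 50 bp, the smallest overlap being 6 bp, and the nearest 786-O-only peak lay 7 bp from one. The median distance between the midpoints of the pairs was 21.5 bp, a value partly fixed by the overlap rule. Of the 423, 19 shared their A498 peak with another. The 5 lowest by parental 786-O score ranked from 3046 to 3337 of 3361, and 3 of these had a peak in a tagged list.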

How the data were processed

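Peaks of 5 libraries were analysed. Per the submitters' processing notes, BWA, MACS2 and the hg19 build were used; versions and settings are not stated there. Each deposited list gives positions and, as the authors' score, −log10 of a p or q value (every list begins just above 2), called per library against 1 control. Depth behind single peaks is unknown.

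The common background peaks, the gene names and the groups of genes were chosen with earlier results of these data known. Shares carry exact Clopper-Pearson intervals and differences Newcombe intervals. Named positions follow rank rules: the 10 lowest sums of parental ranks, 5 by tagged ranks, 5 absent from both tagged lists, 5 without MYC and 5 of lowest score, of which a part is printed; the highest MYC and the weak parental sites were added after the values were seen. Gene lists, promoter windows and motifs at the peaks themselves need hg19 and were not analysed here, and 1 gene with its peaks is not reported by name. RefSeq promoters (GRCh38.p14) matched 4 of the 4 genes printed.

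Tools were Python 3.11.15 with pandas 2.3.3, numpy 2.4.6, matplotlib 3.10.9 and scipy 1.17.1. On simulated data 0 of 3000 peaks were called wrongly, and 0 differed from bedtools 2.31.1. Overlap rule, bins, score, width and contigs were varied.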

Additional observations from a re-analysis of the deposited data

How the results depend on the processing

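Of 101 alternative values for 12 results, 62 stayed within the interval of the reported value (or within 1.5 times a count), 39 moved and 0 changed sign; the cause of these moves was not tested. The number of common background peaks was 221 with the upper 50% of each list and 727 with no bin left out. Shares with tagged 786-O, tagged A498, both tagged and MYC peaks, in that order, were 54.6%, 47.3%, 29.84% and 10.16% under a 50% reciprocal overlap; 70.98%, 53.03%, 40.11% and 30.61% where midpoints had to lie within 200 bp; and 78.73%, 55.66%, 49.77% and 12.22% with the upper 50% of each list. Without the widest 1% of peaks the tagged A498 share was 57.03% and the share in both tagged lists 52.6%. The MYC share was 25.58% with no bin left out, 51.68% with bins of 5 or more parental peaks left out, 48.42% with bins of 10 or more in either list left out, 48.65% with peaks merged within 1 kb and 51.45% without bins of 5 or more common background peaks, an alternative added after seeing the data. The differences from the 786-O-only background, in percentage points, moved as follows. For tagged 786-O the difference was 40.79 by the reciprocal rule, 21.13 by midpoints, 2.088 matched by score and 9.212 matched by width. For tagged A498 it was 24.49 with the upper 50% of each list, 16.96 matched by score and 26.83 matched by width. For MYC it was −0.7349 by the reciprocal rule, −15.91 by midpoints, −45.41 with the upper 50%, −44.5 with no bin left out, −19.31 and −22.38 with the 2 other bin rules in the order above, −22.72 merged, −19.16 without crowded bins and −34.36 matched by score. For shared peak ends it was 14.25 in tagged 786-O and 9.771 in tagged A498 with a limit of 25 bp, also added later. No paired analysis was possible because each group is 1 library. Promoter and motif windows at the peaks were not run, as they need hg19. Without read counts, depth cannot be weighed, and the lists differ in length, so a missing peak in the shorter lists does not show that the site is free of signal.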
